A study of Danio rerio with 2 samples.

Results

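Genes of estrogen synthesis were examined in ovary RNA of adult zebrafish of the AB strain, with 1 library from *sox3* knockout (KO, *sox3*-/-) fish and 1 library from wild type (WT, *sox3*+/+) fish. The 7 genes were taken by name. They are the aromatase gene *cyp19a1a*, the forkhead genes *foxl2a* and *foxl2b*, and the 17β-hydroxysteroid dehydrogenase genes *hsd17b1*, *hsd17b3*, *hsd17b12a* and *hsd17b12b*. All 7 were among the 22328 genes of the deposited table. Each library held poly(A) RNA of whole ovaries from 3 fish that the labels call a mix, so no genotype has a replicate and no difference can be set against the spread between fish. The knockout was made with CRISPR/Cas9, and its alleles carry small frame-shift deletions. Neither the labels nor the methods say which of the 2 mutant lines gave the library.

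Estradiol is made in the ovarian follicle by a relay of enzymes. Cholesterol is carried into mitochondria and cut to pregnenolone, and enzymes of theca and granulosa cells turn this into androgens. Aromatase then converts androgens to estrogens, and reductive 17β-hydroxysteroid dehydrogenases make the potent estradiol from estrone. Foxl2, a transcription factor of granulosa cells, is known from fish and mammals as an activator of the aromatase gene and a guardian of ovarian identity. In zebrafish, loss of *cyp19a1a* turns the gonad to testis.

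The table gives levels in FPKM, fragments counted per transcript and scaled to transcript length and to library size, which can be compared between genes. It holds no counts per gene, so the counting error of a value is unknown. Among 3000 genes between 0.05 and 0.4 FPKM in both libraries, the most frequent log2 ratio was 0. Values rounded to 2 decimals are often equal at this level, so this ratio says little of depth. The study lists nearly equal numbers of clean reads for both libraries. The median listed gene was at 1.94 FPKM in the library labelled KO and at 2.01 FPKM in the library labelled WT. The targeted gene, *sox3* (SOX3, ENSDARG00000053569), had 2.16 FPKM in the library labelled KO, against 1.18 FPKM in the library labelled WT. Its transcript was thus not lower under the knockout label. Every direction given here is that of the labels.

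The 7 genes fell into a pair of abundant transcripts and 5 scarce ones. In the library labelled KO the order ran from *hsd17b12a* at 100.71 FPKM over *hsd17b12b* at 45.11, *hsd17b1* at 2.46, a FOXL2 gene (ENSDARG00000068417) at 1.47, *cyp19a1a* at 1.12 and *hsd17b3* at 0.72 down to the other FOXL2 gene (ENSDARG00000042180) at 0.51 FPKM. In the library labelled WT the same order held, with 94.23, 37.93, 4.72, 3.61, 2.04, 0.98 and 0.73 FPKM. Both hsd17b12 genes were above 86.8% of all listed genes in either library, whereas the other 5 lay between 36.5% and 58.5% of them. The 5 scarce genes were all lower in the library labelled KO, and the abundant pair was slightly higher there. The lowest levels leaned this way over all genes too. With the larger value between 0.5 and 1 FPKM, as for *hsd17b3* and FOXL2 ENSDARG00000042180, 40.0% of genes were 1.4-fold lower and 26.4% were 1.4-fold higher. In RNA of whole ovaries, fewer cells of a type and less RNA per cell cannot be told apart. Without replicates it cannot be said which neighbours in this order differ beyond their spread.

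**Figure D1:**
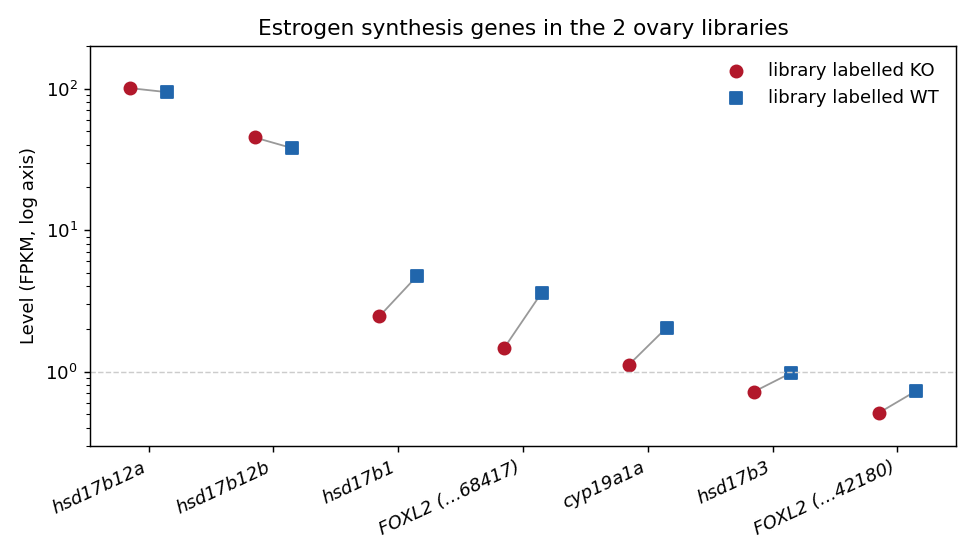
FPKM of the 7 estrogen synthesis genes on a log axis, with the library labelled KO as circles on the left and the library labelled WT as squares on the right of each gene. A line joins the 2 values of a gene, and the dashed line marks 1 FPKM. The 5 genes below 5 FPKM slope upwards to the library labelled WT, while *hsd17b12a* and *hsd17b12b* are nearly level.

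Aromatase is the only enzyme that makes estrogens, and zebrafish carry an ovarian and a brain gene for it. The ovarian gene *cyp19a1a* (CYP19A1 in the names table, ENSDARG00000041348) had 1.12 FPKM in the library labelled KO and 2.04 FPKM in the library labelled WT. This is 0.549 times the wild type value, or a log2 ratio of -0.81 on log2(FPKM + 0.1), the scale of all log2 ratios given here. Its transcript stood near the middle of all genes, above 44.6% of them in the library labelled KO and above 50.1% in the library labelled WT. The brain gene *cyp19a1b* had no match of its own among the names, and no value is given for it.

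Of the 17β-hydroxysteroid dehydrogenases, *hsd17b1* (ENSDARG00000027469) is the granulosa cell enzyme that reduces estrone to estradiol. It was at 2.46 FPKM in the library labelled KO, against 4.72 FPKM in the library labelled WT, 0.521 times as much (log2 ratio -0.91). This was close to the ratio of *cyp19a1a*, so that the level of *hsd17b1* per *cyp19a1a* was 2.2 in the library labelled KO and 2.31 in the library labelled WT. The sum of the pair was 3.58 FPKM in the library labelled KO and 6.76 FPKM in the library labelled WT.

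The gene *hsd17b3* (ENSDARG00000023287) encodes the enzyme that reduces androstenedione to testosterone and is known in mammals from the testis. It was scarce, at 0.72 FPKM in the library labelled KO and 0.98 FPKM in the library labelled WT (log2 ratio -0.40), which is within 1.4-fold.

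The hsd17b12 enzymes reduce 3-ketoacyl-CoA in the elongation of long-chain fatty acids, and the human enzyme can also reduce estrone. *hsd17b12a* stands under HSD17B12 (ENSDARG00000015709), a name with no paralogue letter, and was told from *hsd17b12b* (ENSDARG00000035872) because the name of *hsd17b12b* is given in full. The log2 ratios were 0.10 for *hsd17b12a* and 0.25 for *hsd17b12b*, and their summed level was 145.82 FPKM in the library labelled KO, against 132.16 FPKM in the library labelled WT. The a gene made up 69.1% of this sum in the library labelled KO and 71.3% in the library labelled WT, so the balance between the paralogues was nearly equal in the libraries.

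The names table puts *foxl2a* and *foxl2b* both under FOXL2, without a letter, and they are told apart here by their IDs only. Both encode forkhead factors that act in zebrafish ovary maintenance. The more abundant gene, ENSDARG00000068417, had 1.47 FPKM in the library labelled KO and 3.61 FPKM in the library labelled WT, which gave the lowest log2 ratio of the 7 genes, -1.24. For ENSDARG00000042180 the values were 0.51 FPKM in the library labelled KO and 0.73 FPKM in the library labelled WT (log2 ratio -0.44). Summed, the pair was at 1.98 FPKM in the library labelled KO and 4.34 FPKM in the library labelled WT, and the share of ENSDARG00000068417 was 74.2% in the library labelled KO, against 83.2% in the library labelled WT.

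At the fold threshold of the study, 1.4, and among the 5 genes that reached 1 FPKM in at least 1 library, 3 were lower in the library labelled KO (*cyp19a1a*, *hsd17b1* and FOXL2 ENSDARG00000068417) and 0 were higher. *hsd17b3* and FOXL2 ENSDARG00000042180 did not reach 1 FPKM. Of all 13455 genes at 1 FPKM or more, 17.5% were lower and 15.1% higher by this measure. At least 2-fold lower was FOXL2 ENSDARG00000068417 alone, where 7.89% of all genes were 2-fold lower and 6.34% were 2-fold higher. With the larger value between 2 and 5 FPKM, as for this gene, 14.1% were 2-fold lower and 12.0% were 2-fold higher. The median log2 ratio was -0.81 over the 5 genes, which is the value of *cyp19a1a* itself, and -0.02 over all genes. The mean was -0.52 over the 5 genes and -0.03 over all genes. Ratios of scarce genes scattered widely: among 2226 genes with their larger value between 2 and 5 FPKM, 28.6% were 1.4-fold lower and 24.9% were 1.4-fold higher. The 3 lower genes all lie in this band, and the middle 50% of its log2 ratios ran from -0.58 to 0.48. Between 20 and 100 FPKM, 7.78% of genes were 1.4-fold lower and 7.69% were higher. A lower value of a scarce gene was thus common in these libraries.

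**Figure D2:**
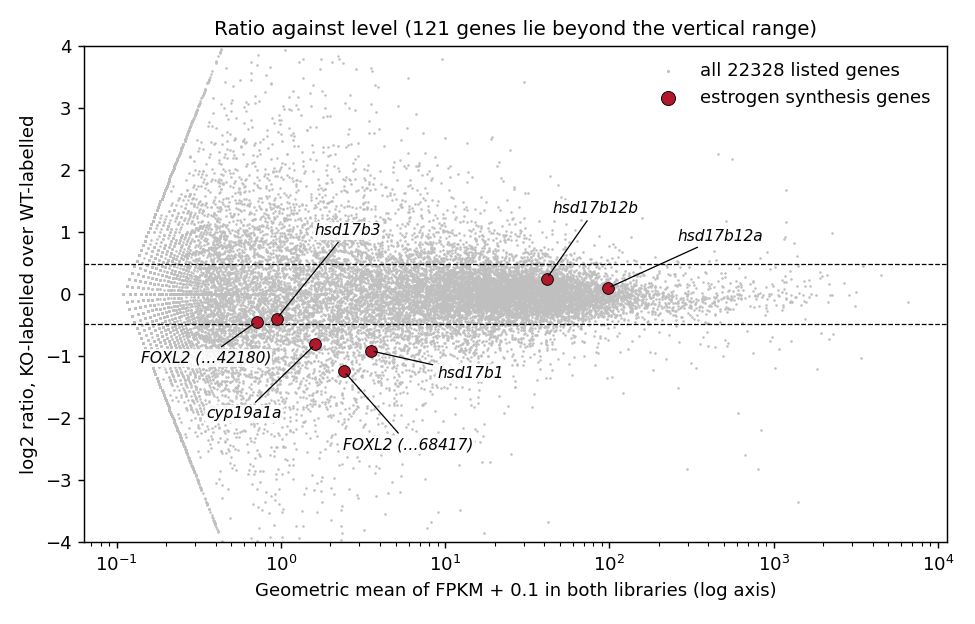
Log2 ratio (KO-labelled over WT-labelled) against the geometric mean of FPKM + 0.1 in both libraries, on a log axis, for all 22328 listed genes in grey and the 7 estrogen synthesis genes in red. Dashed lines mark 1.4-fold, and 121 genes lie outside the vertical range. The grey cloud is wide at the level of *cyp19a1a*, *hsd17b1* and the FOXL2 genes and narrow at that of the hsd17b12 genes.

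The family of 17β-hydroxysteroid dehydrogenases had 10 genes in the table under hsd17b names. Their summed level was 221.49 FPKM in the library labelled KO and 211.81 FPKM in the library labelled WT, of which *hsd17b1* made up 1.11% in the library labelled KO and 2.23% in the library labelled WT. The hsd17b12 pair made up 65.8% of the sum in the library labelled KO, against 62.4% in the library labelled WT. Among the other family genes, *hsd17b8*, whose mammalian enzyme works in mitochondrial fatty acid synthesis and can oxidise estradiol, was at 5.48 FPKM in the library labelled KO and 9.92 FPKM in the library labelled WT (log2 ratio -0.84). Of 6 such genes at 1 FPKM or more, the related *hsdl1* and *hsdl2* included, it alone was past 1.4-fold. This is near the share over all genes at 1 FPKM or more, of which 17.5% were lower and 15.1% higher. *hsd17b2*, which oxidises estradiol back to estrone, was higher by less than 1.4-fold, at 12.09 FPKM in the library labelled KO, against 8.89 FPKM in the library labelled WT. The oxidising *hsd17b2* thus stood at 4.91 times the level of the reducing *hsd17b1* in the library labelled KO and at 1.88 times in the library labelled WT. *hsd17b2* was named after its values had been seen. *hsd17b8*, which can also oxidise estradiol, went the other way, and its log2 ratio of -0.84 was near the -0.91 of *hsd17b1*.

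**Figure D3:**
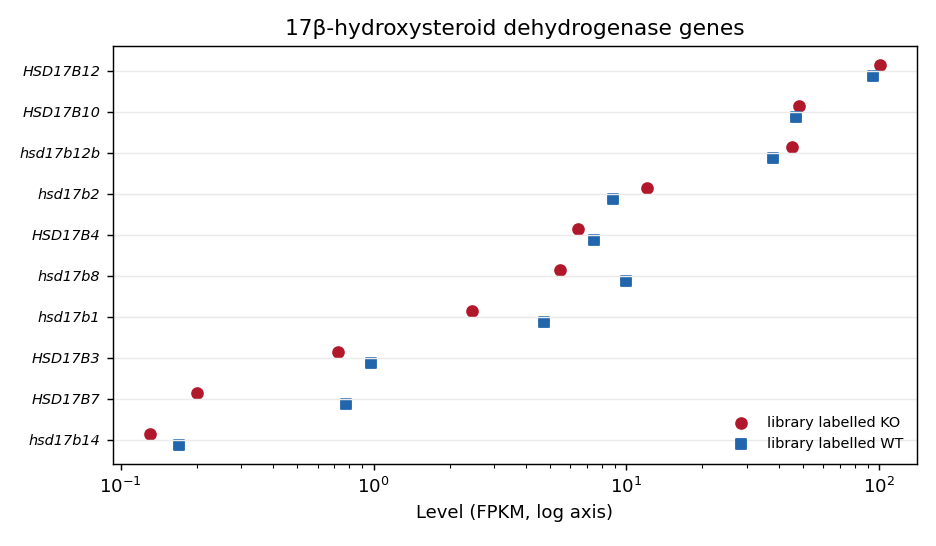
FPKM of the 10 hsd17b genes on a log axis, the library labelled KO as circles above and the library labelled WT as squares below in each row. Genes are ordered by their level in the library labelled KO. *hsd17b12a* (listed as HSD17B12) and *hsd17b12b* lie near the right end in both libraries, and *hsd17b1* lies lower at 2.46 FPKM in the library labelled KO and 4.72 FPKM in the library labelled WT.

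The steps before aromatase went both ways. Of 16 genes of cholesterol import, steroid enzymes and their electron donors at 1 FPKM or more, 7 were higher and 5 lower by 1.4-fold in the library labelled KO (median log2 ratio 0.16, mean 0.00). Over all genes at 1 FPKM or more, 15.1% were higher and 17.5% lower. The side-chain cleavage enzyme gene *cyp11a1* (CYP11A1, ENSDARG00000002347), which makes pregnenolone, had 153.47 FPKM in the library labelled KO and 105.49 FPKM in the library labelled WT. A second gene under CYP11A1 was under 1 FPKM in both, and how reads were split between these copies is unknown. *hsd3b2*, whose enzyme makes progesterone, had 77.18 FPKM in the library labelled KO and 51.65 FPKM in the library labelled WT. The related *hsd3b1* was scarcer, at 3.67 FPKM in the library labelled KO and 2.54 FPKM in the library labelled WT. The androgen-forming *cyp17a1* (CYP17A1) had 48.96 FPKM in the library labelled KO and 30.73 FPKM in the library labelled WT. The sum of *cyp11a1*, *hsd3b2* and *cyp17a1* was 279.61 FPKM in the library labelled KO, 1.49 times the 187.87 FPKM of the library labelled WT. The sum of *hsd17b1* and *cyp19a1a* was 0.530 times its value in the library labelled WT. The 3 genes of the first sum were all higher. The sum over all 17 genes of the list was closer between the libraries, at 659.60 FPKM in the library labelled KO and 593.44 FPKM in the library labelled WT. Which cells of the ovary held these transcripts was not tested.

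Electron donors and *STAR* were among the 5 lower genes. *STAR*, which brings cholesterol to the inner mitochondrial membrane, had 0.46 FPKM in the library labelled KO and 1.88 FPKM in the library labelled WT. It passed the filter only through the latter library. The ferredoxin gene *fdx1* was at 104.96 FPKM in the library labelled KO and 178.31 FPKM in the library labelled WT, and its reductase gene *FDXR* at 3.88 FPKM in the library labelled KO and 8.13 FPKM in the library labelled WT. Both pass electrons to mitochondrial cytochromes P450. The remaining lower genes were *CYB5A* and the scarce ferredoxin gene *fdx1b*. *CYB5A* was at 10.27 FPKM in the library labelled KO and 15.69 FPKM in the library labelled WT, and *fdx1b* at 1.1 FPKM in the library labelled KO and 1.59 FPKM in the library labelled WT. The higher genes included *STARD3*, a cholesterol carrier of late endosomes (log2 ratio 0.96), and *FDX2*, a ferredoxin of iron-sulfur cluster assembly (log2 ratio 0.72). The 2 genes under POR, the electron donor of microsomal aromatase, had log2 ratios of -0.06 and -0.18, so the partner of the enzyme differed little.

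Set against aromatase within each library, *cyp11a1*, *hsd3b2* and *cyp17a1* stood further above it in the library labelled KO. These 3 are among the 7 higher genes of the list. Ratios to aromatase were not taken for its 5 lower genes, so they do not describe the steps before aromatase as a whole. The level of *cyp17a1* was 43.7 times that of *cyp19a1a* in the library labelled KO and 15.1 times in the library labelled WT. For *hsd3b2* the ratio was 68.9 in the library labelled KO and 25.3 in the library labelled WT, and for *cyp11a1* it was 137 in the library labelled KO and 51.7 in the library labelled WT. These ratios are taken within a library and do not depend on how the libraries were scaled to each other. They share *cyp19a1a* as denominator and are not separate evidence of its level.

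**Figure D4:**
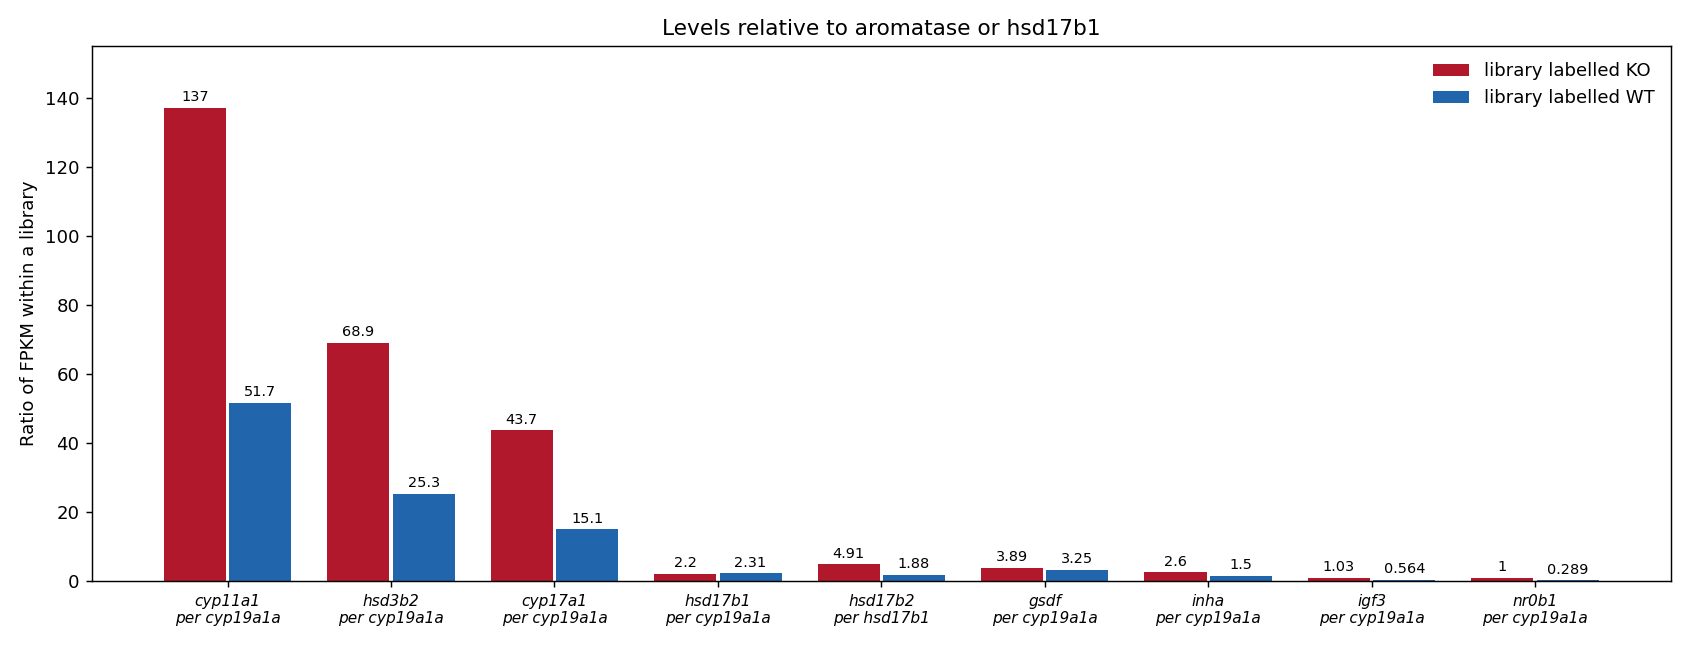
Ratio of FPKM between 2 genes within each library, the library labelled KO as the left bar and the library labelled WT as the right bar of each pair. Of the genes before aromatase, only some of the higher ones are shown. The genes *cyp11a1*, *hsd3b2* and *cyp17a1* stand at 43.7 to 137 times *cyp19a1a* in the library labelled KO and at 15.1 to 51.7 times in the library labelled WT, while *hsd17b1* per *cyp19a1a* is nearly equal, at 2.2 in the library labelled KO and 2.31 in the library labelled WT.

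Factors that act on the aromatase gene, or on gonadal sex more widely, went both ways. Of 10 such genes at 1 FPKM or more, 4 were lower and 3 higher by 1.4-fold in the library labelled KO (median log2 ratio 0.01). The shares over all genes at 1 FPKM or more were 17.5% lower and 15.1% higher. Where the larger value was between 1 and 2 FPKM, 34.6% were lower and 27.6% higher. Between 2 and 5 FPKM, 28.6% were lower and 24.9% higher. Apart from a SOX9 gene, all regulators past 1.4-fold lay at these levels. The genes *foxl2l*, *DMRT1* and *NR0B1* reached 1 FPKM only in the library where they were higher, so the filter partly set their direction. The forkhead gene *foxl2l*, a relative of the FOXL2 genes that in medaka directs germ cells to the female fate, had 0.68 FPKM in the library labelled KO, against 4.29 FPKM in the library labelled WT. With a log2 ratio of -2.49 it was the lowest of this list. One SOX9 gene (ENSDARG00000043923), of a family of gonadal HMG-box factors, had 23.83 FPKM in the library labelled KO and 4.09 FPKM in the library labelled WT, the highest log2 ratio of the list at 2.51. The other 2 higher genes were *sox3* itself, with its values above, and *NR0B1*, a nuclear receptor that restrains steroid synthesis, at 1.12 FPKM in the library labelled KO and 0.59 FPKM in the library labelled WT.

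The orphan receptor Nr5a1 is known as a direct activator of aromatase and other steroid enzyme genes. Its more abundant gene (NR5A1, ENSDARG00000103176) had 1.67 FPKM in the library labelled KO and 2.49 FPKM in the library labelled WT (log2 ratio -0.55). *NR5A2* was under 1 FPKM, at 0.21 FPKM in the library labelled KO and 0.30 FPKM in the library labelled WT. A gene under CREB1, a factor of the cAMP signal that gonadotropins raise, was at 1.88 FPKM in the library labelled KO and 3.38 FPKM in the library labelled WT. The more abundant *creb1a* differed little, at 10.1 FPKM in the library labelled KO and 10.72 FPKM in the library labelled WT. The male-promoting *DMRT1* was at 0.80 FPKM in the library labelled KO and 1.3 FPKM in the library labelled WT. The follicle-stimulating hormone receptor, *FSHR*, was listed at 0.01 FPKM in the library labelled KO, the smallest value of the table, and at 0.07 FPKM in the library labelled WT.

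**Figure D5:**
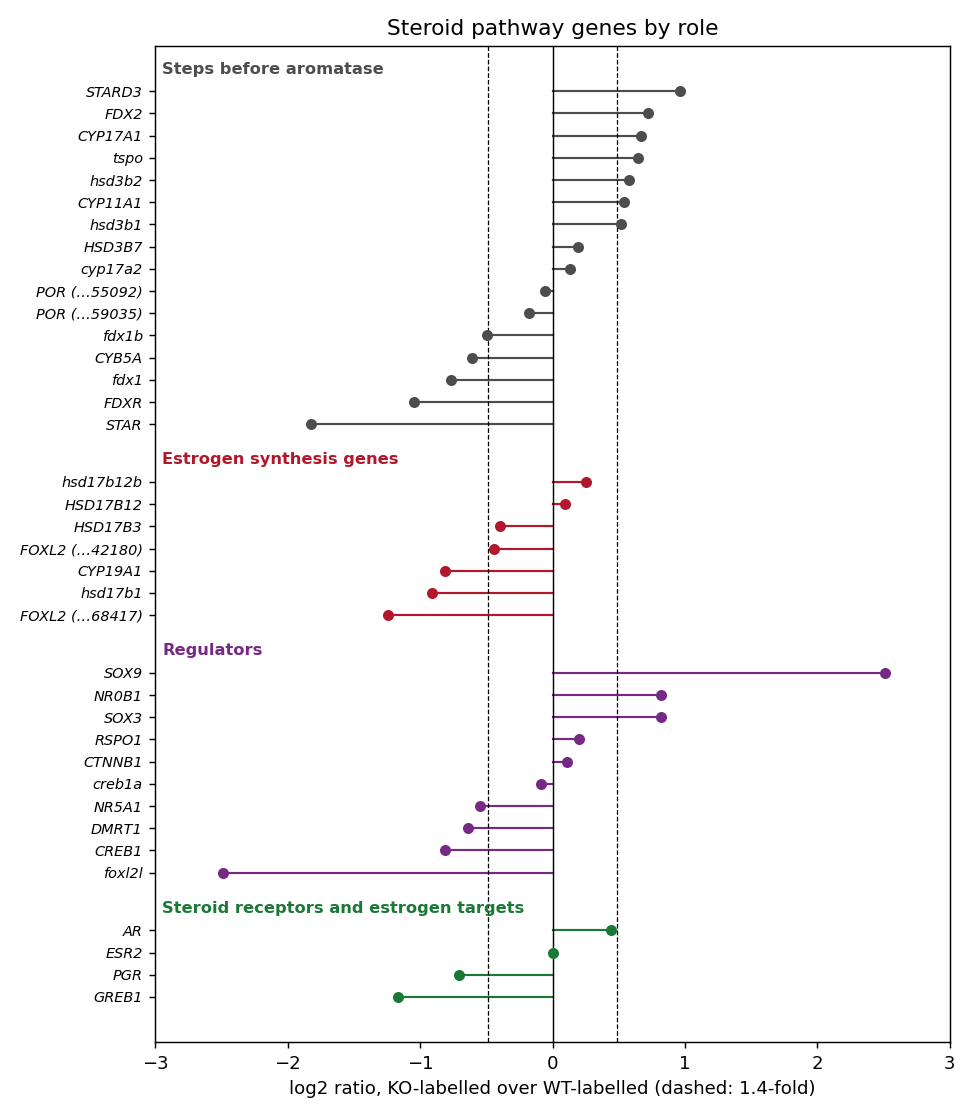
Log2 ratio (KO-labelled over WT-labelled) of genes by role, with dashed lines at 1.4-fold. Genes before aromatase, regulators and receptors are shown at 1 FPKM or more in either library, and all 7 estrogen synthesis genes are shown. Genes of the steps before aromatase, cholesterol carriers and electron donors included, run from 0.96 (*STARD3*) to -1.82 (*STAR*), while the estrogen synthesis genes run from 0.25 to -1.24.

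Downstream of estradiol the values were low. Of 4 steroid receptors and estrogen-responsive genes at 1 FPKM or more, 2 were lower and 0 higher by 1.4-fold in the library labelled KO. One was *GREB1*, at 3.18 FPKM in the library labelled KO and 7.26 FPKM in the library labelled WT. The other was the progesterone receptor gene *PGR*, at 0.63 FPKM in the library labelled KO and 1.09 FPKM in the library labelled WT. *PGR* passed the filter only through the latter library. Over all genes at 1 FPKM or more, 17.5% were lower and 15.1% higher. Where the larger value was between 1 and 2 FPKM, as for *PGR*, 34.6% of genes were lower, and between 5 and 20 FPKM, as for *GREB1*, 17.5% were. A count over 4 genes cannot show a difference from these shares. The more abundant gene under ESR2, an estrogen receptor, named after its values had been seen, was at 3.54 FPKM in both. Of 5 genes of estrogen inactivation and conjugation at 1 FPKM or more, *hsd17b8* was lower and 0 were higher.

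For the hsd17b12 genes the partners in fatty acid elongation give the nearest comparison. Of 11 elongase, dehydratase and reductase genes at 1 FPKM or more, 8 lay within 1.4-fold, 1 was higher and 2 were lower in the library labelled KO (median log2 ratio 0.10). Over all genes at 1 FPKM or more, 15.1% were higher and 17.5% lower. The lowest was *HACD4*, a 3-hydroxyacyl-CoA dehydratase gene, at 1.23 FPKM in the library labelled KO and 5.0 FPKM in the library labelled WT. One ELOVL4 gene, an elongase of very long chains (ENSDARG00000027495), was at 10.13 FPKM in the library labelled KO and 16.76 FPKM in the library labelled WT, and the other (ENSDARG00000006773) was higher, at 1.79 FPKM in the library labelled KO and 1.22 FPKM in the library labelled WT. The summed level of all 16 measured partners was 250.05 FPKM in the library labelled KO and 249.78 FPKM in the library labelled WT.

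Granulosa markers were scarce in both libraries, with 12 genes summing to 11.39 FPKM in the library labelled KO and 13.70 FPKM in the library labelled WT. Of the 4 at 1 FPKM or more, *gsdf* was 1.4-fold lower, at 4.36 FPKM in the library labelled KO and 6.62 FPKM in the library labelled WT, *NR0B1* was higher, and the other 2 lay within 1.4-fold, with *inha* at 2.91 FPKM in the library labelled KO and 3.06 FPKM in the library labelled WT. The level of *gsdf* per *cyp19a1a* was 3.89 in the library labelled KO and 3.25 in the library labelled WT. Per *cyp19a1a*, *inha* was at 2.60 in the library labelled KO and 1.5 in the library labelled WT, *igf3* at 1.03 and *NR0B1* at 1.0 in the library labelled KO, against 0.564 and 0.289 in the library labelled WT. The 4 markers thus did not keep one ratio to aromatase. Markers of theca and stroma, 8 genes, summed to 91.10 FPKM in the library labelled KO and 70.57 FPKM in the library labelled WT. The steroid enzyme gene *cyp17a1*, given above, made up 48.96 FPKM of this in the library labelled KO and 30.73 FPKM in the library labelled WT. Of the 6 at 1 FPKM or more, 2 were higher by 1.4-fold (*cyp17a1* and *NR2F2*), 1 was lower and 3 lay within it. For both marker lists, the shares over all genes at 1 FPKM or more were 15.1% higher and 17.5% lower. Where the larger value was between 2 and 5 FPKM, 24.9% were higher and 28.6% lower. Counts over so few genes cannot show a difference from these shares.

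Oocyte markers were abundant, as in an ovary, and 8 of 9 lay within 1.4-fold. The exception was the egg envelope gene *zp2.2*, at 2388.08 FPKM in the library labelled KO and 4861.65 FPKM in the library labelled WT. Liver markers, 3 genes, summed to 0.22 FPKM in the library labelled KO and 0.70 FPKM in the library labelled WT, so they were near 0. Macrophage markers, 6 genes that are mostly copies under MFAP4 and may share reads, summed to 5.47 FPKM in the library labelled KO and 24.80 FPKM in the library labelled WT. Of the 4 at 1 FPKM or more, all MFAP4 copies, 3 were lower by 1.4-fold and 1 lay within it. The only marker not under MFAP4, *csf1ra*, was scarce and went the other way, at 0.35 FPKM in the library labelled KO and 0.16 FPKM in the library labelled WT. Blood markers, 2 genes, summed to 23.63 FPKM in the library labelled KO and 13.28 FPKM in the library labelled WT. Testis markers, 7 genes, summed to 27.49 FPKM in the library labelled KO and 11.48 FPKM in the library labelled WT. The SOX9 gene given above made up 23.83 FPKM of this in the library labelled KO and 4.09 FPKM in the library labelled WT. The marker list named only *sox9a*, but both genes under SOX9 were counted, since that name has no paralogue letter. The other SOX9 gene (ENSDARG00000003293) was at 0.21 FPKM in the library labelled KO and 0.48 FPKM in the library labelled WT. The names do not tell which of these genes is *sox9a*, so the abundant one may not be the testis marker that was meant. Of the 3 testis markers at 1 FPKM or more, only the SOX9 gene given above was higher. The other 2, *DMRT1* and *insl3*, were lower by 1.4-fold, and the median log2 ratio was -0.64. For the marker counts of this paragraph, the shares over all genes at 1 FPKM or more were 15.1% higher and 17.5% lower. Endothelial markers, 2 genes, summed to 2.68 FPKM in the library labelled KO and 1.3 FPKM in the library labelled WT. The part of these cell types in the values of the estrogen synthesis genes was not tested.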

How the data were processed

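Poly(A) RNA was sequenced on a BGISEQ-500 as 1 library for each genotype. The authors deposited FPKM, and the submitters' processing notes name HISAT, Bowtie2, RSEM and the GRCz10 build, without versions. Values have 2 decimals and a smallest value of 0.01, and depth per gene is unknown.

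Log2 ratios of KO over WT were computed after adding 0.1 FPKM. Genes that reached 1 FPKM in at least 1 library were counted at 1.4-fold and 2-fold, with no p-value, since n = 1. A scarce gene could pass this filter by its higher value alone. Names came from a table that matched 20336 of 22328 IDs. A zebrafish name was matched exactly, else in capital letters, else also with a final paralogue letter left off. All 7 genes are named, and of each list the genes past 1.4-fold with the largest ratios, up to 6, and fixed neighbours in the pathway. Some further genes are named beyond this rule, *CYB5A* and *fdx1b* among them. The members and lists were chosen with earlier results of these data known. The counting code was checked on simulated data with large shifts and little noise, at levels of 5 FPKM or more. That check does not cover scarce genes such as *cyp19a1a*. Python 3.11.15, numpy 2.4.6, pandas 2.3.3 and matplotlib 3.10.9 were used. Alternatives were other pseudocounts, scalings, filters and folds. A planned search of promoters for motifs was not run here, and no sequences or coordinates are given.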

Additional observations from a re-analysis of the deposited data

How the results depend on the processing

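Of 49 values of the 7 log2 ratios under other pseudocounts, scalings and levels relative to granulosa markers, 47 stayed on the same side of 1.4-fold with the same direction. FOXL2 ENSDARG00000042180 passed it at -0.51 with a pseudocount of 0.01 FPKM, and *hsd17b12b* at 0.50 relative to all granulosa markers without a filter. The count of 3 lower genes was 1 at a fold threshold of 2 and 0 with a filter of 5 FPKM, which leaves only the hsd17b12 genes. The count of 0 higher genes was 1 relative to all granulosa markers without a filter, a setting added after seeing the data. The median log2 ratio of the genes was 0.17 with the 5 FPKM filter, the opposite sign, and -0.44 with no filter on low values. Of 120 counts of the pathway lists, 85 were within 1.5 times the value given and 35 were not. Of the genes before aromatase, the 7 higher genes became 0 and the 5 lower genes 2 at a fold threshold of 2, and 3 were lower with a filter of 5 FPKM or relative to all granulosa markers. Of the regulators, the 4 lower genes became 0 with a filter of 5 FPKM, 1 at a fold threshold of 2, 2 with a pseudocount of 1 FPKM or relative to all granulosa markers, and 8 with no filter, while the 3 higher genes became 1 at a fold threshold of 2 or a filter of 5 FPKM. Of the receptors and responsive genes, the 2 lower genes became 1 under 4 of these settings and 6 with no filter. The other such counts were between 0 and 4 genes. The shift of all log2 ratios was -0.02 under the trimmed mean scaling, -0.02 under the median of ratios, -0.04 relative to the 4 granulosa markers that passed the filter, -0.05 on the TPM scale, also added after seeing the data, and -0.25 relative to all granulosa markers. No paired analysis was possible because each genotype has 1 library.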

Other observations

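Several genes shared the levels of *cyp19a1a* and of *hsd17b1*. Within 0.1 of *cyp19a1a* on the log2(FPKM + 0.1) scale in both libraries lay 20 other genes, the nearest being *mid1ip1a*, at 1.1 FPKM in the library labelled KO and 2.03 FPKM in the library labelled WT, and then *SLK* and *ANKS3*. For *hsd17b1* there were 17 such genes, the nearest of them *CRACR2A*, *srcin1b* and *SLC35D1*. Over 2 libraries this likeness is a description of levels only.

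The genes beside *cyp19a1a* were looked at after its values had been seen, with their order taken from the RefSeq annotation of another assembly, GRCz12tu. Next to it lies *gldn*, whose gliomedin protein is known from the nodes of Ranvier. *gldn* was at 3.70 FPKM in the library labelled KO and 0.32 FPKM in the library labelled WT, a log2 ratio of 3.18, opposite to that of *cyp19a1a*. On the other side, *tnfaip8l3* was at 0.27 FPKM in the library labelled KO and 0.05 FPKM in the library labelled WT. Further out, *acadl* had a log2 ratio of -0.28 and *dmxl2* of 0.32. Beside *hsd17b1*, *mettl26* was at 6.36 FPKM in the library labelled KO and 11.42 FPKM in the library labelled WT, and on the other side *si:ch73-141c7.1* was at 0.80 FPKM in the library labelled KO and 0.29 FPKM in the library labelled WT. Further out, *ankrd40* had a log2 ratio of -0.18, and the 2 genes under ACLY (*aclya* in the annotation) had -0.10 and -1.32.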
